A study of Homo sapiens with 4 samples.

Results

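Glycosyltransferases of families that build mucin-type O-glycans and N-glycans were followed at the mRNA level in H226 cells with and without a hairpin against p63. Some members of these families act on glycolipids or proteoglycans instead, as given below. The genes were taken by symbol: rows of the count table whose names begin with GALNT, B3GNT, B3GALT, B4GALT, ST3GAL, ST6GAL, FUT, MGAT or GCNT followed by a digit or N, with 10 or more reads in at least 2 libraries. Of 80 rows with such names 64 met that minimum, out of 25369 rows in all. They are 61 protein-coding genes and 3 antisense RNAs (ST3GAL4-AS1, B4GALT1-AS1 and FUT8-AS1). H226 is an established human line labelled as lung squamous cell carcinoma. Every cell carried a doxycycline-inducible short hairpin RNA and received 1 µg/mL doxycycline for 6 days. In the control group (shControl, n = 2) the hairpin had no target, and in the other group (shp63, n = 2) it was directed at p63, a transcription factor of basal epithelial cells. The labels name 1 hairpin construct per group, so the hairpin and its target cannot be told apart.

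Mucin-type O-glycans begin when a GALNT enzyme adds N-acetylgalactosamine (GalNAc) to serine or threonine. C1GALT1 then adds galactose to form core 1, or B3GNT6 adds N-acetylglucosamine (GlcNAc) to form core 3, and GCNT enzymes branch these cores. N-glycans are attached to asparagine as a preformed block, trimmed, and branched by the MGAT enzymes. On both kinds of chain, B3GNT, B3GALT and B4GALT enzymes add GlcNAc and galactose. Of the sialyltransferases, ST6GALNAC enzymes act on GalNAc, and of the fucosyltransferases (FUT), FUT8 adds core fucose to N-glycans. The other sialyltransferases (ST3GAL and ST6GAL) and most FUT enzymes cap the ends. Secretory airway and gut epithelium is known for dense mucin-type glycans and for the Lewis and ABH antigens that such caps form.

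The libraries held 51926832 to 53924761 counted reads, so that 1 CPM (reads scaled to library size and composition) stands for 50.1 to 55.4 reads. TP63, the gene of the hairpin's target, had 7533 and 7364 reads in shControl and 1596 and 1530 in shp63, 4.46-fold lower (adjusted p = 2.28e-21, log2 fold change -2.16 with an SE of 0.04). Of 8 squamous and basal markers 7 fell, and KRT6A rose 1.32-fold. The 7 include TP63, the hairpin's target, whose fall is the one given above and not a further result. The summed level of all 8 went from 2026 to 2150 CPM in shControl down to 722 to 731 CPM in shp63. SOX2, a defining squamous factor, had 14 and 11 reads in shControl and 1 and 3 in shp63. All 5 general epithelial markers rose, from a sum of 3103 to 3119 CPM up to 6466 to 6728 CPM. Markers of mucous and secretory epithelium summed to 11.7 to 13.6 CPM in shControl and 41.2 to 42.1 CPM in shp63. In that list 3 of 5 tested genes rose (SPDEF, AGR2 and MUC5B), MUC2 fell from 0.532 to 0.224 CPM and SCGB1A1 did not pass. Much of the summed rise was SPDEF, which went from 3.39 to 24.8 CPM. TFF3 had no read, and MUC5AC had no row. Leukocyte markers went from 13 to 14.4 CPM up to 74.6 to 78.6 CPM, with 3 of 4 tested genes higher (CD14, CD68 and LYZ) and ITGAM lower, while the defining markers PTPRC and CD3E had at most 8 reads in a library. Mesothelial markers summed to 415 to 440 CPM and 678 to 684 CPM, with MSLN and UPK3B higher, BNC1 lower and WT1, CALB2 and LRRN4 at 8 reads or fewer. Endothelial markers summed to 59.9 to 64.9 CPM and 190 to 191 CPM, with CDH5 and PECAM1 higher, VWF lower and KDR at 0 or 1 read, and fibroblast markers to 97.1 to 102 CPM and 67.0 to 75.2 CPM, with DCN at 0. The part of these cell state markers in the results below was not tested, and in such bulk samples fewer cells of a type and less RNA per cell cannot be told apart.

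Glycosyltransferase transcripts were mostly higher in shp63. The gene set was chosen with earlier results of these data known. Of the 64 genes, 40 were higher and 12 lower by edgeR's quasi-likelihood test (Benjamini-Hochberg adjusted p under 0.05, 14901 genes tested), and 12 did not pass the test. These are 62.5% higher and 18.8% lower, where over all genes tested 36.9% were higher and 37.1% lower. Of changes tested to exceed 1.5-fold, 23 members were higher (35.9%) and 2 lower (3.12%, B3GNT5 and GCNT4), against 12.7% and 10% of all genes tested. The median log2 fold change was 0.37 over the members and -0.01 over all genes tested, and the members ranged from -1.01 (GCNT4) to 3.03 (GCNT3). The 2 groups of libraries did not overlap for 58 of the 64 genes, or 90.6%, against 86.4% of all genes tested. With 2 samples against 2 the exact two-sided permutation p of a single gene cannot go below 0.333, so each call rests on the spread that the model shares across genes.

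Added together, the 64 genes took 3385 and 3399 CPM in the shControl libraries and 6356 and 6293 CPM in the shp63 libraries, a ratio of 1.86. B4GALT1 alone made up 34.4% and 34.2% of that sum in shControl and 42% and 41.9% in shp63. Without it the sums were 2221 and 2236 CPM and 3686 and 3654 CPM, a ratio of 1.65. Of the 64 genes 3 met the read minimum only through the group where they were higher (GALNT13 in shControl, GALNT16 and FUT6 in shp63). Without these 3, 38 of 61 were higher, 12 lower and the median was again 0.37. The plot by role gives the change of each gene. The counts by role that follow stand beside 36.9% higher and 37.1% lower over all genes tested, and each role holds few genes.

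**Figure D1:**
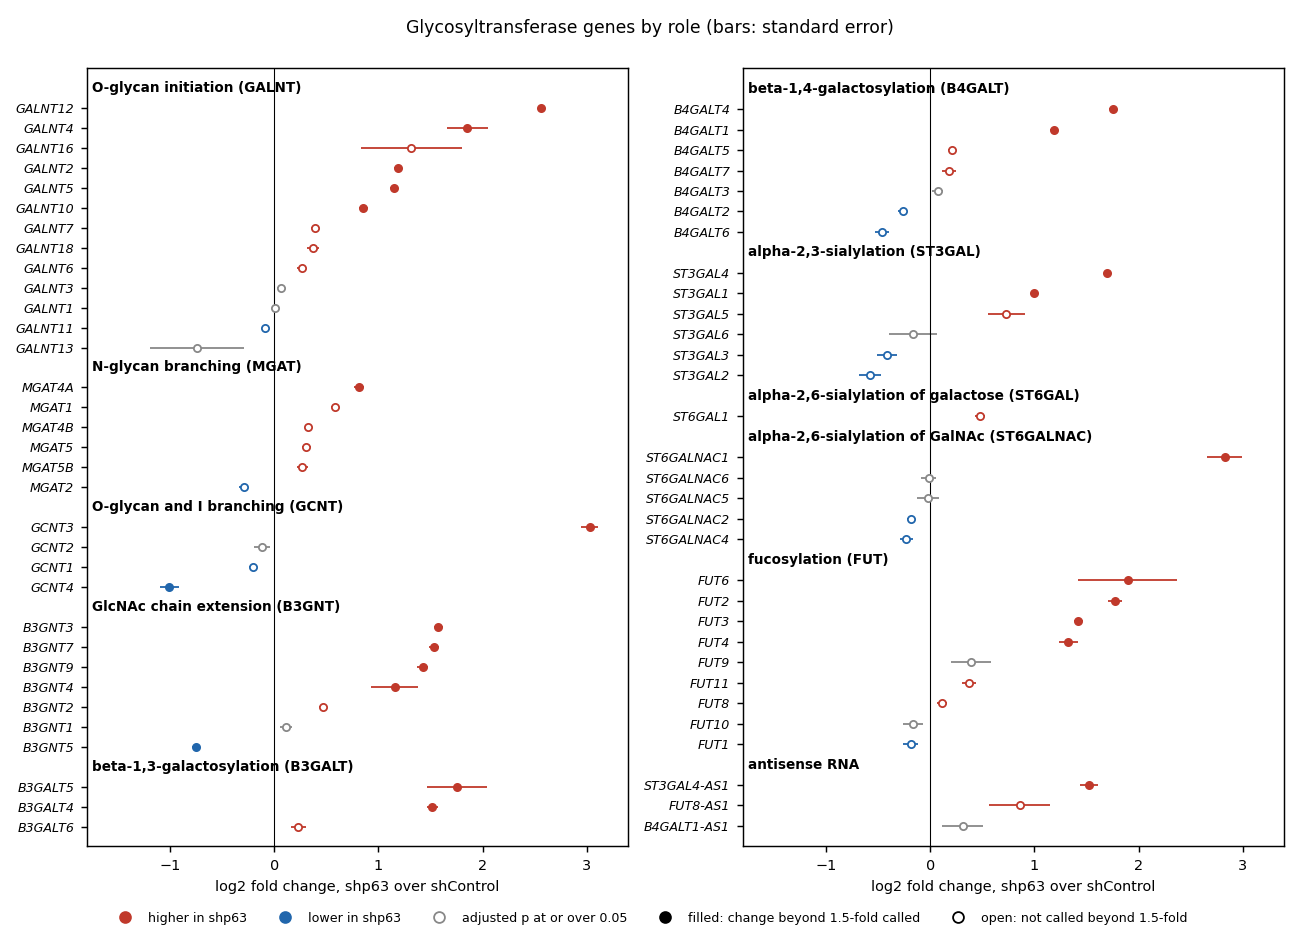
Log2 fold change (x axis, shp63 over shControl) of the 64 genes, grouped by role, with standard errors as bars. Red points passed the test as higher, blue as lower and grey did not pass, and filled points passed the test beyond 1.5-fold. Filled red points occur in every role except the single ST6GAL gene, and the 2 filled blue points are GCNT4 and B3GNT5.

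Among the initiating enzymes, 13 GALNT genes met the minimum, of which 9 rose, 1 fell and 3 did not pass. GALNT16, among the 9, met it only through shp63, and GALNT13, among the 3, only through shControl. GALNT12 rose most. Its locus (GRCh37, plus strand) is on chromosome 9 at 101569952 to 101612363, and it had 3109 and 2948 reads in shControl against 17136 and 16360 in shp63. Both shp63 libraries stood far above both controls. Its level went from 55.5 ± 0.871 to 328 ± 2.20 CPM (SD, n = 2 each), a 5.91-fold rise (log2 fold change 2.56, SE 0.03, adjusted p = 1.94e-24). GALNT2, a broadly expressed family member on chromosome 1 (230193737 to 230417868), had 11413 and 11284 reads in shControl and 24642 and 23610 in shp63, a 2.27-fold rise (log2 fold change 1.18, SE 0.03, adjusted p = 2.96e-19). GALNT5 had 1572 and 1445 reads against 3240 and 3016, a 2.22-fold rise with no overlap (log2 fold change 1.15, SE 0.04, adjusted p = 1.34e-16). GALNT4 had 31 and 40 reads against 136 and 105, a 3.62-fold rise (log2 fold change 1.85, SE 0.20, adjusted p = 2.58e-08). GALNT4, an enzyme that prefers already glycosylated peptides, shares its locus with POC1B and with a readthrough transcript, POC1B-GALNT4, which had 3 to 8 reads, so its count depends on how shared reads were assigned. POC1B itself went from 26.1 to 40.9 CPM.

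GALNT10, another enzyme that acts on glycosylated peptides, rose 1.81-fold from 25.0 ± 0.618 to 45.3 ± 0.738 CPM. GALNT7, GALNT18 and GALNT6 rose by less, by 0.39, 0.37 and 0.26 on the log2 scale. GALNT1, the GALNT of highest level per kb in shControl, was at 14756 and 14653 reads in shControl and 13909 and 13720 in shp63, which is 269 ± 4.56 and 271 ± 4.43 CPM (log2 fold change 0.01, SE 0.03, adjusted p = 0.86). The groups overlapped for GALNT1 once scaled for composition. Scaled by library totals alone its log2 fold change was -0.08 (adjusted p = 0.0125), and it was also under 0 without shControl replicate 1 (-0.02) or shp63 replicate 2 (-0.01), so GALNT1 is given no direction. GALNT3, which glycosylates the hormone FGF23, was at 97.4 and 102 CPM (adjusted p = 0.151), but at an adjusted p of 0.0282 without shControl replicate 1. GALNT11, which can glycosylate NOTCH1, was called lower by 0.08 on the log2 scale with an adjusted p of 0.0482, and that call was lost without any 1 of the 4 libraries (0.0798 to 0.203), with DESeq2 (0.257), limma-voom (0.0673), a replicate block (0.0677) and RLE size factors (0.0671). Near the floor, GALNT16 had 5 and 6 reads against 15 and 11 and was called higher (adjusted p = 0.0184), but not with DESeq2 (0.208) nor without shControl replicate 1 (0.113), shControl replicate 2 (0.056) or shp63 replicate 1 (0.159). GALNT13, a neuronal enzyme, had 12 and 15 reads against 6 and 9 (adjusted p = 0.144).

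The make-up of the GALNT pool changed with these values. Counts were divided by the length of each gene's reference transcript so that genes could be set side by side, in CPM per kb, and family sums took every row of the family with a length, also those under the read minimum. On that scale GALNT1 made up 31.5% ± 0.419 of the family sum in shControl and 17.5% ± 0.276 in shp63 (SD, n = 2 each). GALNT12 went from 9.30% ± 0.180 to 30.5% ± 0.224, and GALNT2 from 21.8% ± 0.223 to 27.4% ± 0.133. The order of the 3 leading enzymes was thus GALNT1, GALNT2, GALNT3 in shControl and GALNT12, GALNT2, GALNT1 in shp63. The family sum itself was 216 ± 0.780 CPM per kb in shControl and 389 ± 0.250 in shp63.

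**Figure D2:**
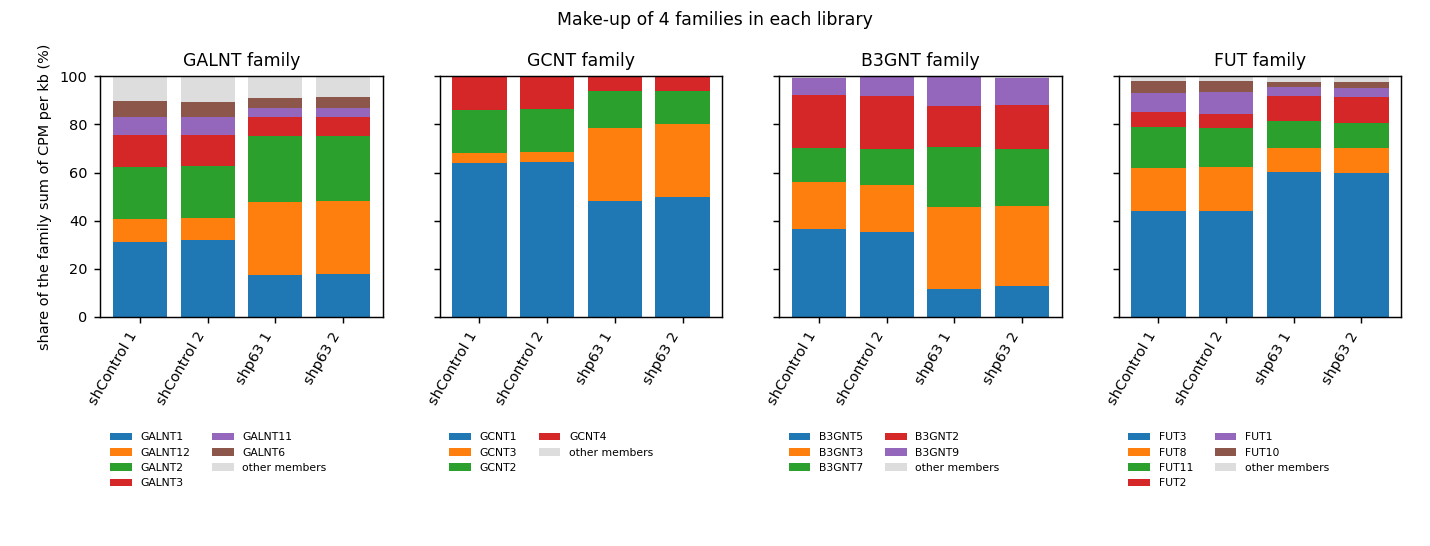
Share of each gene in its family's summed CPM per kb (y axis, percent) in each of the 4 libraries (x axis) for the GALNT, GCNT, B3GNT and FUT families. Genes that stay under 4% in all libraries are grouped in grey. The replicates of a group look alike, GALNT12 goes from 9.30% to 30.5%, GCNT3 from 4.24% to 30.4% and B3GNT5 from 35.8% to 12.2%.

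The branching genes of O-glycans moved apart, with 1 of 4 GCNT genes higher, 2 lower and 1 not past the test. GCNT3, the mucin-type enzyme that makes core 2, core 4 and I branches in secretory epithelium, had 134 and 125 reads in shControl and 1010 and 967 in shp63. Its level rose 8.15-fold (mean ± SD of 2 libraries, 2.37 ± 0.0647 to 19.4 ± 0.0910 CPM), with no overlap between groups (log2 fold change 3.03, SE 0.08, adjusted p = 1.17e-18). The locus (GRCh37, plus strand) is on chromosome 15 at 59887074 to 59932438. GCNT4, another core 2 enzyme, had 428 and 425 reads against 202 and 195, a 2.01-fold fall (log2 fold change -1.01, SE 0.09, adjusted p = 1.99e-09). With DESeq2 the change of GCNT4 did not pass the test beyond 1.5-fold (adjusted p = 0.0518). GCNT1, the core 2 enzyme well known from leukocytes, had 2192 and 2230 reads against 1809 and 1792, a fall of 0.20 on the log2 scale (SE 0.04, adjusted p = 0.000102). GCNT2, which makes the I branch, was at 9.20 and 8.48 CPM with overlapping groups (adjusted p = 0.196), and scaled by library totals it was called lower (adjusted p = 0.0311). Per kb, GCNT3 held 4.24% ± 0.240 of the family sum in shControl and 30.4% ± 0.0230 in shp63, while GCNT1 stayed the largest part at 64.1% ± 0.294 and 49.0% ± 1.14.

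Reference sequence before the start site is given for GCNT3 and GALNT12, the largest rises among genes with a window, for B4GALT4, the largest rise of its family, and for GCNT4, which moved the other way. Windows came from RefSeq (GRCh38.p14) and were matched by symbol for 46 of the 64 genes. A RefSeq start need not be the end of a GRCh37 locus given here, and which start these cells use was not tested. The 250 bases before the start were searched on both strands for the GC box GGGCGG, the TATA box TATAAA, the AP-1 motif TGANTCA, the E-box CACGTG, and a pair of CATG cores spaced 6 bases apart, an arrangement found in p53 family sites. Capitals mark the motifs found, which in these windows were GC boxes on either strand. The windows are chr15:59611533-59611782 (plus strand) for GCNT3, chr9:98807420-98807669 (plus strand) for GALNT12, chr3:119240879-119241128 (minus strand) for B4GALT4, whose values follow below, and chr5:75052559-75052808 (minus strand) for GCNT4.
GCNT3: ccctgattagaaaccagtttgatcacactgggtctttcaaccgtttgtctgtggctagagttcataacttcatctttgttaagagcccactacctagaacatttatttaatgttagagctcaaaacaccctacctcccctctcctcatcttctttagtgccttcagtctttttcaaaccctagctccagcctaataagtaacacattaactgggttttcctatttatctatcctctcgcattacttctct
GALNT12: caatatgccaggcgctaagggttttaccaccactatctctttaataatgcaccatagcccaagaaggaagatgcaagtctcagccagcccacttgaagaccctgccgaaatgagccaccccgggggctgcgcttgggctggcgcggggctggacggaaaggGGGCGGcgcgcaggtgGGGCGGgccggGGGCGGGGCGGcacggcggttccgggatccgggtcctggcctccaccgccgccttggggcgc
B4GALT4: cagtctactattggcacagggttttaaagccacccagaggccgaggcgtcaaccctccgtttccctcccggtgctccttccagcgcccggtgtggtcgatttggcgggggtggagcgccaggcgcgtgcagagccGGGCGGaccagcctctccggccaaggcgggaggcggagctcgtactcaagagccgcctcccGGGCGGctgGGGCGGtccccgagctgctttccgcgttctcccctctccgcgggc
GCNT4: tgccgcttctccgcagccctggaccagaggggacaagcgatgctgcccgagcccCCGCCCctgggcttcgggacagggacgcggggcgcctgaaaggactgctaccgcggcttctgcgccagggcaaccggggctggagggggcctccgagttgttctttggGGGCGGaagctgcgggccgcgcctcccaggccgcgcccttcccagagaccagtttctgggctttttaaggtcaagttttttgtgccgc

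The GCNT3 window held no GC box, 40.4% G and C and 2 CpG dinucleotides. The GALNT12 window held 4 GC boxes (2 of them overlapping), 67.2% G and C and 21 CpG, and the B4GALT4 window 3 GC boxes, 70.0% G and C and 26 CpG. GCNT4, which fell, also had 2 GC boxes, 68.4% G and C and 21 CpG. These 3 genes that rose thus differed in base composition. Over the 82 windows of the matched genes the median was 65.4% G and C, against 58.0% over 35116 RefSeq windows of the same length. A GC box occurred in 59.8% of members' windows and 42.6% of all windows, and in 72.2% of the 18 windows of members that were higher beyond 1.5-fold (13 of 18). These 18 windows belong to 14 of the 23 such genes, so some genes count more than once. All windows cover 27305 genes, beside 14901 genes tested here, so these shares do not compare expressed genes alone. The TATA box was in 1.22% of members' windows and 10.7% of all, the AP-1 motif in 3.66% and 6.57%, and the E-box in 3.66% and 6.34%. In the 18 windows of members higher beyond 1.5-fold the TATA box and the E-box each occurred in 1 (5.56%) and the AP-1 motif in 0. The pair of CATG cores was in none of the 82 windows and in 0.296% of all windows. At so low a rate its absence from 82 windows shows nothing about p63. Only these exact letters were searched, and they say nothing of binding further away.

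Of the 6 genes that set N-glycan branching 5 rose and 1, MGAT2, fell. Their median was 0.32 on the log2 scale. Beyond 1.5-fold, 1 of the 6 was higher (16.7%), against 12.7% of all genes tested. MGAT4B, which adds a beta-1,4 branch, had the highest mean count, with 7740 and 7536 reads in shControl and 9247 and 8653 in shp63, a rise of 0.32 on the log2 scale (SE 0.03, adjusted p = 2.14e-09). Its paralog MGAT4A rose 1.76-fold, from 28.7 ± 2.16 to 50.5 ± 2.35 CPM (adjusted p = 8.74e-12), and was the MGAT gene that passed the test beyond 1.5-fold. MGAT1, which starts hybrid and complex chains, went from 74.1 ± 1.57 to 111 ± 1.87 CPM, a rise of 0.58 on the log2 scale (SE 0.04, adjusted p = 5.57e-12). MGAT2, the next enzyme of that order, fell 1.23-fold from 67.8 ± 0.0820 to 55.4 ± 0.889 CPM (adjusted p = 1.59e-06). MGAT5, which adds the beta-1,6 branch, and MGAT5B rose by 0.31 and 0.27 on the log2 scale. The summed level of the family was 106 ± 0.668 CPM per kb in shControl and 125 ± 1.59 in shp63, and MGAT4B held 55.8% and 59.1% of it. MGAT3, which adds the bisecting GlcNAc, had 0 to 7 reads, and MGAT4C none.

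Of 7 B3GNT genes, which extend chains with GlcNAc, 5 rose, 1 fell and 1 did not pass. B3GNT3, which extends core 1 O-glycans, had 1826 and 1742 reads in shControl and 5183 and 4782 in shp63, a 2.98-fold rise (log2 fold change 1.58, SE 0.04, adjusted p = 1.15e-18). B3GNT7, known for keratan sulfate chains, had 1769 and 1772 reads against 5065 and 4544, a 2.90-fold rise (log2 fold change 1.53, SE 0.05, adjusted p = 5.39e-18). B3GNT9 had 685 and 700 reads against 1822 and 1657, a 2.68-fold rise (log2 fold change 1.42, SE 0.06, adjusted p = 4.84e-16). For all 3 the lower shp63 library was more than 2 times the higher control in reads. B3GNT4 rose near the floor, from 40 and 30 reads to 63 and 83 (log2 fold change 1.16, SE 0.23, adjusted p = 0.000102). B3GNT2, the main enzyme of poly-N-acetyllactosamine chains, rose 1.38-fold from 37.6 ± 0.0700 to 52.1 ± 1.69 CPM.

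B3GNT5 moved the other way. This enzyme starts the lacto-series of glycolipids, and it had 5178 and 4799 reads in shControl and 2741 and 2800 in shp63, a 1.68-fold fall from 91.3 ± 2.91 to 54.3 ± 2.23 CPM (SD, n = 2 each, adjusted p = 5.4e-13). Per kb it went from 35.8% ± 0.828 of the family sum to 12.2% ± 0.696, and B3GNT3 became the largest part with 33.5% ± 0.507. The row named B3GNT1 was at 18.9 and 20.5 CPM (adjusted p = 0.0817), but at an adjusted p of 0.00807 without shp63 replicate 2. RefSeq lists B3GNT1 as an older name of both B4GAT1 and B3GNT2, so its identity is uncertain here, although B3GNT2 has a row of its own. It has no length and is left out of the shares.

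All 3 B3GALT genes rose, though 1 only slightly. B3GALT4, a ganglioside galactosyltransferase, had 734 and 752 reads in shControl and 2080 and 1905 in shp63, a 2.87-fold rise (log2 fold change 1.52, SE 0.05, adjusted p = 6.22e-17). B3GALT5, which builds the type 1 chains that carry Lewis a, rose near the floor. It had 15 and 15 reads against 42 and 53, from 0.275 to 0.932 CPM (log2 fold change 1.75, SE 0.29, adjusted p = 1.14e-05). B3GALT6, an enzyme of the proteoglycan linker, rose by 0.23 on the log2 scale (adjusted p = 0.00534), a call lost with library totals (0.0747), with DESeq2 (0.08) and without shp63 replicate 1 (0.0541).

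Of 7 B4GALT genes 4 rose, 2 fell and 1 did not pass. B4GALT1, the main galactosyltransferase of N-glycans and a subunit of lactose synthase, was the most abundant gene of all 64 in CPM. Its locus (GRCh37, minus strand) is on chromosome 9 at 33104080 to 33167354, and it had 64552 and 62524 reads in shControl and 138903 and 132278 in shp63. That is 1164 ± 0.792 and 2654 ± 22.5 CPM (SD, n = 2 each), a 2.28-fold rise (log2 fold change 1.19, SE 0.04, adjusted p = 1.18e-17). B4GALT4, which can act on sulfated chains, rose more in proportion, from 2556 and 2576 reads to 8156 and 8005 (3.37-fold, log2 fold change 1.75, SE 0.04, adjusted p = 1.92e-20). Its level per kb was 21.0 and 70.8 CPM per kb, against 279 and 636 for B4GALT1. The lactosylceramide synthase genes went apart, with B4GALT5 higher by 0.21 on the log2 scale (adjusted p = 1.89e-05) and B4GALT6 lower 1.38-fold (adjusted p = 2.44e-06). B4GALT2 fell 1.20-fold from 72.0 ± 2.47 to 60 ± 0.968 CPM, and B4GALT3 was at 24.3 and 25.5 CPM (adjusted p = 0.2). B4GALT7, a proteoglycan linker enzyme, was called higher by 0.18 on the log2 scale (adjusted p = 0.016). That call was lost with library totals (0.21), with DESeq2 (0.13), without shControl replicate 2 (0.121) and without shp63 replicate 1 (0.206).

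**Figure D3:**
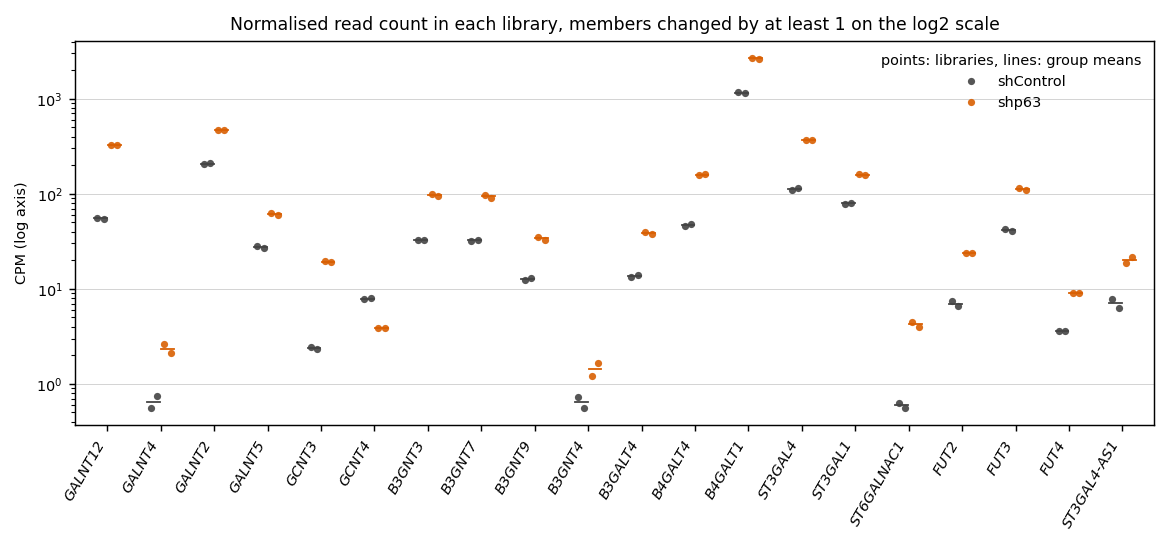
Normalised read count (y axis, CPM on a log axis) in each library for the 20 genes that were called, changed by at least 1 on the log2 scale and averaged at least 1 CPM (x axis, by role). Grey points are shControl, orange points shp63 and lines the group means. In each of the 20 genes both shp63 points lie on the same side of both control points, above them in 19 and below them in GCNT4. The genes were picked for large changes in these same libraries, so this separation follows from the choice. Over all genes tested 86.4% did not overlap.

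Capping enzymes that add alpha-2,3 sialic acid divided, with 3 of 6 ST3GAL genes higher, 2 lower and 1 not past the test. ST3GAL4, which takes part in sialyl Lewis x synthesis, has its locus (GRCh37, plus strand) on chromosome 11 at 126225535 to 126310239. It had 6109 and 6208 reads in shControl and 19152 and 18291 in shp63, from 113 ± 3.75 to 366 ± 2.37 CPM (SD, n = 2 each). This 3.25-fold rise (log2 fold change 1.70, SE 0.03, adjusted p = 1.77e-21) left it with 79.6% ± 0.608 of the family's summed CPM per kb in shControl and 88.2% ± 0.258 in shp63. ST3GAL1, which caps core 1, had 4351 and 4335 reads against 8436 and 7820, a 2.00-fold rise (log2 fold change 1.00, SE 0.04, adjusted p = 7.93e-17). ST3GAL5, the synthase of the ganglioside GM3, rose 1.66-fold from 72 and 53 reads to 103 and 91 (adjusted p = 0.000971). ST3GAL2 and ST3GAL3 fell 1.49-fold and 1.33-fold, from 5.17 to 3.47 CPM and from 6.66 to 4.99 CPM. ST3GAL6 had 50 and 53 reads against 52 and 34 (adjusted p = 0.528).

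Of the alpha-2,6 sialyltransferases, ST6GAL1, which caps galactose on N-glycans, had 1075 and 998 reads in shControl and 1399 and 1303 in shp63, a 1.39-fold rise (log2 fold change 0.48, SE 0.05, adjusted p = 3.06e-08). Among 5 ST6GALNAC genes 1 rose, 2 fell and 2 did not pass. ST6GALNAC1, the enzyme of the sialyl-Tn antigen, had 35 and 30 reads in shControl and 235 and 198 in shp63. Its level rose 7.09-fold (mean ± SD of 2 libraries, 0.595 ± 0.0517 to 4.23 ± 0.402 CPM), the second largest rise of the 64 genes (log2 fold change 2.83, SE 0.17, adjusted p = 1.4e-12). Per kb it still held only 0.606% ± 0.0563 of the family sum in shControl and 4.66% ± 0.447 in shp63. ST6GALNAC2 held 65.3% and 62.0% and fell slightly, from 2686 and 2663 reads to 2256 and 2139 (log2 fold change -0.19, SE 0.04, adjusted p = 0.000203). ST6GALNAC4 fell by 0.23 on the log2 scale (adjusted p = 0.00293), a call that DESeq2 did not make (0.054). ST6GALNAC5 and ST6GALNAC6 had overlapping groups, at 4.87 and 4.80 CPM and at 10.1 and 9.99 CPM (adjusted p = 0.852 and 0.869). The family sum was 39.4 ± 0.235 CPM per kb in shControl and 36.5 ± 0.0320 in shp63, the lowest of the 10 family ratios at 0.925.

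Of 9 FUT genes 6 were higher, 1 was lower and 2 did not pass. The 6 include FUT6, which met the read minimum only through shp63, and FUT8, whose call was lost in several alternatives. FUT3, the Lewis enzyme, has its locus (GRCh37, minus strand) on chromosome 19 at 5842899 to 5851482. It had 2375 and 2190 reads in shControl and 5917 and 5523 in shp63, a 2.68-fold rise (log2 fold change 1.42, SE 0.04, adjusted p = 4.59e-18). FUT2, the secretor enzyme that makes the H antigen of mucosal secretions, had 411 and 354 reads against 1248 and 1206, a 3.43-fold rise from 7 ± 0.585 to 24.0 ± 0.0446 CPM (log2 fold change 1.78, SE 0.07, adjusted p = 2.86e-16). Its relative FUT1, the H enzyme of red cells, was called lower by 0.19 on the log2 scale (adjusted p = 0.0279), but not with DESeq2 (0.184), without shControl replicate 2 (0.228) or without shp63 replicate 2 (0.133). FUT4, an alpha-1,3 enzyme of Lewis x, had 201 and 194 reads against 469 and 457, a 2.51-fold rise (log2 fold change 1.32, SE 0.09, adjusted p = 1.22e-11). Per kb, FUT3 held 43.9% ± 0.0507 of the family sum in shControl and 60% ± 0.254 in shp63.

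FUT6, a close paralog of FUT3 beside it on chromosome 19, had 5 and 4 reads against 17 and 15 (adjusted p = 0.00118, and 0.0519 with DESeq2), and FUT5, the third gene there, had 0 or 1 read in each library. The counts of these 3 copies are uncertain where a read fits more than 1 of them. FUT11 rose by 0.37 on the log2 scale. FUT8, the sole enzyme of core fucose on N-glycans, was at 28.9 and 31.3 CPM and was called higher by 0.11 on the log2 scale (adjusted p = 0.0264). That call was lost with library totals (0.599), with DESeq2 (0.179), without shControl replicate 2 (0.249), without shp63 replicate 1 (0.0576) and without shp63 replicate 2 (0.0975). FUT9, another Lewis x enzyme, was at 1.04 and 1.37 CPM (adjusted p = 0.0675). FUT10 was at 6.19 and 5.53 CPM with overlapping groups (adjusted p = 0.131), and it was called lower with library totals (0.0259) and without shControl replicate 2 (0.0344).

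The 3 antisense RNAs cannot be separated from their partners with certainty, since the strand setting of the counting was not given in the sources used here. ST3GAL4-AS1 had 430 and 340 reads in shControl and 985 and 1080 in shp63, a 2.87-fold rise beside the 3.25-fold rise of ST3GAL4 (log2 fold change 1.52, SE 0.09, adjusted p = 3.05e-11). FUT8-AS1 had 17 and 20 reads against 34 and 29 (adjusted p = 0.0122). Its call was lost with DESeq2 (0.171), without shControl replicate 1 (0.0898) and without shp63 replicate 1 (0.09). B4GALT1-AS1 had 68 and 51 reads against 64 and 74 (adjusted p = 0.163), while B4GALT1 rose 2.28-fold.

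The 16 rows under the read minimum had at most 12 reads in any library. They are GALNT8, GALNT9, GALNT14, GALNT15, B3GALT1, B3GALT2, B3GNT6, B3GNT8, FUT5, FUT7, GCNT7, MGAT3, MGAT4C, ST6GAL2, ST6GALNAC3 and ST3GAL6-AS1. B3GALT1 and MGAT4C had no read, and B3GNT6, the core 3 enzyme of colonic mucins, had 1 read in 1 shp63 library.

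Other genes of the pathway were read from 7 lists of 128 further genes, of which 125 were in the table and 115 were tested. Of these 78 rose, 20 fell and 17 did not pass, with a median log2 fold change of 0.30. Over all genes tested 36.9% were higher and 37.1% lower. The lists, like the members, were chosen with earlier results of these data known. The list of core 1 and partner genes also holds enzymes of other chains, such as the ganglioside enzyme B4GALNT1. In it 5 of 8 tested genes rose and 3 fell, a count that does not describe O-glycan synthesis alone. C1GALT1, the core 1 enzyme, rose 2.14-fold from 51.5 ± 0.221 to 110 ± 3.20 CPM, and its chaperone C1GALT1C1 likewise rose 2.14-fold (30.8 ± 0.907 to 65.9 ± 0.871 CPM). B4GALNT1, a ganglioside enzyme, fell 2.67-fold and B4GALNT4 fell 1.42-fold. B4GALNT2, the enzyme of the Sda antigen, was chosen after its values were seen: it had 98 and 101 reads in shControl and 4 and 6 in shp63 (log2 fold change -4.19, adjusted p = 3.94e-11).

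Genes of the N-glycan precursor moved less than the members, whose median was 0.37. Of 30 genes for the N-glycan precursor and its transfer 19 rose and 4 fell (median log2 fold change 0.22), among them RPN1, a subunit of the transferase complex, up 1.65-fold, ALG12 up 1.62-fold, and ALG10 and ALG10B down 1.55-fold and 1.34-fold. Of 9 tested trimming genes 7 rose and 1 fell (median 0.36), with MAN1B1 and MOGS up 1.68-fold and 1.44-fold and MANEA down 1.28-fold. Of 23 genes for nucleotide sugar supply 16 rose and 4 fell (median 0.20). NANS, which makes sialic acid, rose 2.74-fold (61.6 ± 0.623 to 169 ± 2.92 CPM, adjusted p = 1.07e-19), and GFPT1, the first enzyme of hexosamine synthesis, rose 1.62-fold, while PMM1 and FPGT fell 1.49-fold and 1.21-fold. Of 11 transporter genes 9 rose and 2 fell (median 0.30). SLC35C1, which carries GDP-fucose into the Golgi, rose 1.73-fold and SLC35A2, the UDP-galactose transporter, 1.40-fold, while SLC35D1 and SLC35B4 fell 2.09-fold and 1.76-fold.

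Enzymes that take glycans apart had the highest median of the 7 lists, 0.74, with 13 of 15 tested genes higher and 1 lower. FUCA1, the lysosomal fucosidase, rose 8.64-fold from 12.7 ± 0.499 to 110 ± 0.280 CPM, and the lysosomal sialidase NEU1 rose 2.35-fold, while NEU3, the plasma membrane sialidase, fell 2.16-fold. Of 19 tested genes for proteoglycans and other O-linked sugars 9 rose and 5 fell (median 0.09). CSGALNACT1, which starts chondroitin chains, rose 3.21-fold and B3GAT3 1.83-fold, while EXTL2 and LFNG fell 1.64-fold and 1.29-fold. The comparison across lists shares the same 4 libraries, and no list was tested as a set.

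**Figure D4:**
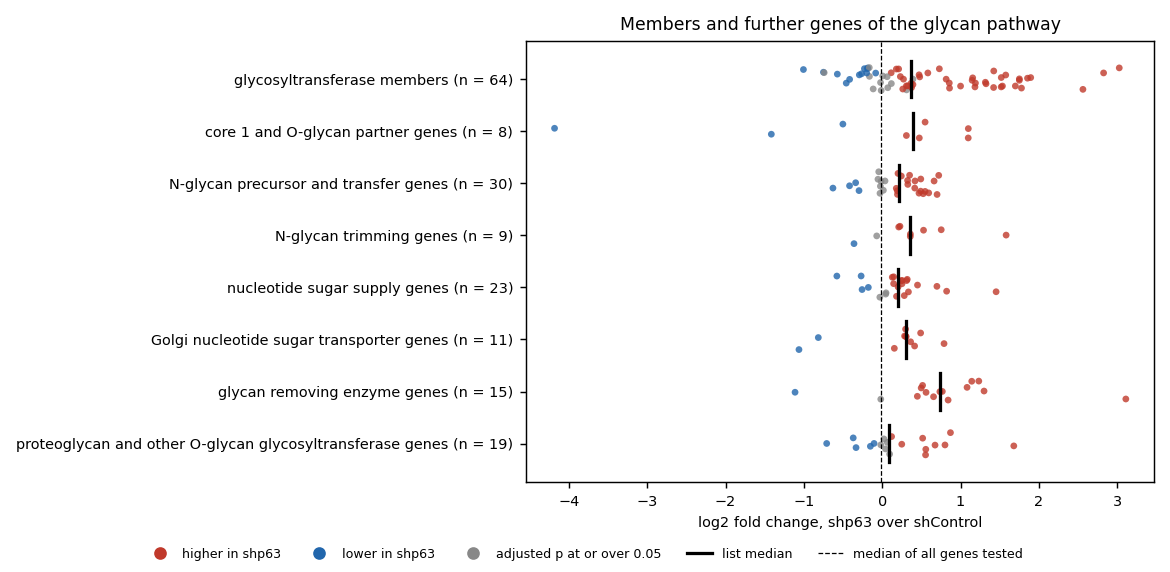
Log2 fold change (x axis, shp63 over shControl) of the 64 members and of the tested genes of 7 further lists (y axis), each point 1 gene, with list medians as black bars and the median of all genes tested (-0.01) as a dashed line. The medians run from 0.09 for proteoglycan and other O-linked genes to 0.74 for glycan removing enzymes, with 0.37 for the members.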

How the data were processed

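Polyadenylated RNA of 4 H226 cultures (2 shControl, 2 shp63) was sequenced with a stranded kit, per the labels' protocols. The authors deposited whole-number read counts per gene symbol, aligned to GRCh37 (hg19) and counted with HTSeq, per the series' design text. Versions were TopHat2 2.0.13 and HTSeq 0.6.1, per the submitters' processing notes. For the annotation and strand setting, the sources used here give nothing. Nothing ties same-numbered libraries. The submitters call the replicates independent, and with 2 per group the p-values cover only how far these cultures differ. Replicate pairs differed by more than sampling noise (chi-square 2.92 and 3.13 per degree of freedom).

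Counts were tested with edgeR 4.0.16 (R 4.3.3): filterByExpr (minimum count 10, total 15), TMM factors, a robust quasi-likelihood fit with group as the only term, and Benjamini-Hochberg adjustment over 14901 genes at 0.05. glmTreat tested changes beyond 1.5-fold. SEs are the fold change over the square root of F. The fit was also run on counts simulated from its own estimates, with far fewer changed genes than were called here. That run does not vouch for the calls. CPM per kb divides by the GENCODE v44 canonical transcript (GRCh37), so it is approximate. Promoter windows are RefSeq GRCh38.p14. Alternatives used RLE factors, library totals, other filters, DESeq2 1.42.0, limma-voom (limma 3.58.1), a replicate block and each library left out.

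The members and lists were chosen with earlier results of these data known. By rule, full values went to called members with a log2 change of at least 1 and at least 1 CPM, and to the member of highest mean CPM in each role. GALNT1 and B3GALT5 were given them outside that rule. Of pathway lists, up to 2 called genes per direction of at least 5 CPM were named.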

Additional observations from a re-analysis of the deposited data

How the results depend on the processing

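The count of members called higher (40) ran from 34 (DESeq2) to 40 over the alternatives other than the crossed pairing, and that of members called lower (12) from 9 (DESeq2) to 15 (library totals). Leaving out each library gave 35 to 40 higher and 10 to 11 lower, 21 to 23 higher and 2 lower beyond 1.5-fold, 77 to 78 pathway genes higher and 18 to 19 lower, and 10353 to 10548 genes called in all. With DESeq2 the count of members lower beyond 1.5-fold was 1 in place of 2. Of 704 comparisons of a member with an alternative 659 kept direction and side of the threshold, 32 lost the call, 5 gained it and 8 turned direction. The 8 were in 6 genes not called to begin with: GALNT1 (-0.082), GALNT3 (-0.027) and B4GALT3 (-0.018) with library totals, GALNT1 (-0.017) without shControl replicate 1, GALNT1 (-0.012) and ST3GAL6 (0.082) without shp63 replicate 2, and ST6GALNAC5 (0.058) and ST6GALNAC6 (0.031) without shp63 replicate 1. GALNT1 with library totals was the one of these that passed the threshold. Over the 4 libraries left out in turn the log2 fold change ran from -0.017 to 0.024 for GALNT1, -0.474 to 0.082 for ST3GAL6, -0.104 to 0.058 for ST6GALNAC5 and -0.059 to 0.031 for ST6GALNAC6. For 46 of the 64 members direction and call were the same in every alternative. Library totals moved the median log2 fold change of all genes from -0.01 to -0.10 and the share of higher genes among called members from 76.9% to 71.2%, beside 49.8% to 41.4% among all called genes and 79.6% to 72.6% among called pathway genes.

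The replicate numbers name samples only, and same-numbered libraries deviated from their group means with a correlation of -0.292. A replicate block gave 40 members higher and 11 lower and 10858 genes called. A crossed pairing, added after seeing the data, gave 41 higher, 12 lower and 11387 genes called. Genes under about 1 CPM rest on some 50 reads or fewer per library, so small changes there were not detectable at this depth.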
